A study of Rattus norvegicus with 13 samples.

Results

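The WNT genes described here are the secreted WNT ligands, their Frizzled receptors and LRP co-receptors, the R-spondin agonists, the secreted inhibitors of the SFRP, DKK and SOSTDC1 kind, the Axin scaffold and the TCF/LEF nuclear factors. This group was chosen with earlier results of these data known. Its genes were matched by symbol in the deposited peak lists, which gave 46 genes of the 21397 genes named in any of the 4 lists. They comprise 18 ligands, 4 R-spondins, 9 Frizzled genes, 2 co-receptors, 8 secreted inhibitors, 1 scaffold (Axin2) and 4 nuclear factors. Axin1, Dkk4, Fzd10 and Wnt8a were named in no peak list and were not analysed here.

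The samples were rat aortic smooth muscle cell (SMC) lines, all grown in the same serum-containing medium. H3K4me2 was mapped by CUT&Tag in Myocd-LSD1 cells, in Myocd-LSD1NF cells and in control cells (labelled WT), with 3 samples each. FLAG was mapped in Myocd-LSD1 cells whose fusion carries a FLAG tag, with 4 samples. In CUT&Tag an antibody-guided Tn5 transposase cuts and tags the DNA that lies near the epitope. Myocd encodes myocardin, the coactivator that serum response factor uses at contractile genes, and LSD1 is a histone demethylase that removes H3K4me2, a mark of active and poised promoters and enhancers. The labels do not spell out NF, how the fusions were introduced, whether a line is a clone, or whether samples of a group were separate cultures. The authors' p-values may therefore measure only the spread between these samples, and that spread may be technical.

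WNT proteins are secreted lipid-modified ligands that bind a Frizzled receptor together with LRP5 or LRP6. In the canonical branch this stops the Axin-containing destruction complex from degrading beta-catenin, which then acts with TCF/LEF factors on target genes. SFRP proteins bind WNT ligands, DKK1 and SOSTDC1 bind LRP5 and LRP6, and R-spondins raise signalling by protecting Frizzled receptors from removal. In vascular smooth muscle WNT signalling is known for roles in proliferation, migration and osteogenic change.

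Promoters of 7 WNT genes are shown. Within 3 kb of their starts, a listed site or a called H3K4me2 peak differed between the lines in the results that follow. Rspo3, Sfrp2, Wnt2 and Wnt5a had a higher promoter site in Myocd-LSD1 cells, and Rspo1 and Wnt1 had a lower one. Dkk1 had no listed site and lacked a called promoter peak only in the Myocd-LSD1NF list. Each run is the 250 bases before the RefSeq gene start on the GRCr8 build, 5′ to 3′ on the gene's strand, with CpG dinucleotides in capitals. All other coordinates are on rn6, and no position was carried over between the builds. The bases shown were thus not placed against a site or peak, and need not lie under one. On GRCr8 the windows lie at chr1:30112279-30112528 on the plus strand for Rspo3 and chr2:171387286-171387535 on the plus strand for Sfrp2. Those of Wnt2 and Wnt5a lie at chr4:47340285-47340534 on the minus strand and chr16:3703415-3703664 on the plus strand. Those of Rspo1, Wnt1 and Dkk1 lie at chr5:142536040-142536289 and chr7:131817308-131817557 on the plus strand and chr1:237798651-237798900 on the minus strand.
Rspo3: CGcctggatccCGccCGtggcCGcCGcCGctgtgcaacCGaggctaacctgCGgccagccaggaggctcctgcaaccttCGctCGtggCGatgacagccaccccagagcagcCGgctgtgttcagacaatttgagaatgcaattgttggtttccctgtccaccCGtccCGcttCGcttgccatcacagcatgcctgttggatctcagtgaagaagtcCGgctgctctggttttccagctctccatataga
Sfrp2: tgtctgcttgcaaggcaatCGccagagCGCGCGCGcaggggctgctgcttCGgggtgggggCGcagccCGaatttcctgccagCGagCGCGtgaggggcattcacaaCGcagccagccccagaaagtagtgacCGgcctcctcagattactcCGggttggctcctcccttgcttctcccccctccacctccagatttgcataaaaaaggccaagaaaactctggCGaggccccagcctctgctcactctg
Wnt2: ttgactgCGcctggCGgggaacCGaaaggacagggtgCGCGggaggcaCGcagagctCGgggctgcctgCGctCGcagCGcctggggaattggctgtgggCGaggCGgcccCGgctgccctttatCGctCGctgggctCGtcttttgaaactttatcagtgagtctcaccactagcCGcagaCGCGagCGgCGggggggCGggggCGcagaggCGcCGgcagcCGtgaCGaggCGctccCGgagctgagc
Wnt5a: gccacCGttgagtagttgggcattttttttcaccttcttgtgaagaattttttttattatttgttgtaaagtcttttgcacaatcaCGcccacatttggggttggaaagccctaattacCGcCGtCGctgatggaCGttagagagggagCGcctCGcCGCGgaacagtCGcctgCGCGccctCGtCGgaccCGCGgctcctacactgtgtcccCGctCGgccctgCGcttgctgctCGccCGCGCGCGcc
Rspo1: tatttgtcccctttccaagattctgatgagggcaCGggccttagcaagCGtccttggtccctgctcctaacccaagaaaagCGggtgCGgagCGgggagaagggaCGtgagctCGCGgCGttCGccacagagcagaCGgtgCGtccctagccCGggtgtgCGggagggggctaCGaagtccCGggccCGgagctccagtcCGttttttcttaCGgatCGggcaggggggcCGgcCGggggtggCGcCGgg
Wnt1: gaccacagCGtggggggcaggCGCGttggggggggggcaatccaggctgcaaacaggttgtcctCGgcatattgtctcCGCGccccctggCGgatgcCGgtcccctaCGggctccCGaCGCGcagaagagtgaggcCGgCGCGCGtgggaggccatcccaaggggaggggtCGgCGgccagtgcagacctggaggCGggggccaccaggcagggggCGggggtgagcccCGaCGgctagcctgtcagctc
Dkk1: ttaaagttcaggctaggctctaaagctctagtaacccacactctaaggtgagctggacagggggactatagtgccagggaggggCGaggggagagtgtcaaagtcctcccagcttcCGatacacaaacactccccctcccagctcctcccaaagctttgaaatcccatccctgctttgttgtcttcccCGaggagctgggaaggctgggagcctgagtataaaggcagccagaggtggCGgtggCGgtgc

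Wnt2 holds 29 CpG dinucleotides in this window, Wnt5a 25, Rspo1 24, Wnt1 22, Rspo3 16, Sfrp2 15 and Dkk1 only 5. The Dkk1 window also has the lowest CpG observed-to-expected ratio of the 31 WNT promoters that the RefSeq table holds, 0.248, and Wnt5a has the highest, 1.23. The median ratio was 0.758 over the 31 WNT promoters and 0.406 over all 27456 promoters in the table, and 80.6% of the WNT promoters and 35.4% of all promoters were above 0.6. The share above 0.6 was 90.0% among the 10 WNT genes with a higher promoter site and 73.7% among the 19 with no promoter site. Most WNT promoters were thus rich in CpG, with or without a listed promoter site.

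Both strands of the same windows were searched for 4 motifs. CTTTGA, the core of the TCF/LEF motif, was in 3 WNT promoters (9.68%), those of Axin2, Dkk1 and Fzd7, and in 13.8% of all promoters. GGGCGG, the GC box, was in 58.1% of WNT promoters and 32.4% of all, and TATAAA was in 3.23% of WNT promoters, only that of Dkk1, and 13.1% of all. The CArG box, the motif of serum response factor, was in 0 of the 31 WNT promoters and 1.5% of all promoters. A match describes letters in these windows and does not show a bound site.

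The labelled cell type was checked against markers. Of 7 SMC genes, 6 had a promoter peak of H3K4me2, which here means one at most 3 kb from a transcription start site (TSS), in the Myocd-LSD1 list, 7 in the Myocd-LSD1NF list and 7 in the control list, and Myh11 was the gene without one in Myocd-LSD1. None of 5 endothelial genes had one in any list. Of the leukocyte genes checked, Csf1r and Cd3e had one in both fusion lists and Csf1r alone in the control list, and Pdgfra and Col1a1 of 4 fibroblast genes had one in all 3 lists. Ptprc, Cd68, Dcn and Lum were not analysed here. Each group has a single peak list, so presence or absence of a peak has no replicate error, the depth behind it is unknown, and depth alone can change it.

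WNT genes carried 133 of the 42405 peaks in the Myocd-LSD1 list, 126 of 42727 in the Myocd-LSD1NF list and 143 of 42672 in the control list, and 58 of the 26480 FLAG peaks. At least 1 H3K4me2 peak was assigned to 43 of the 46 genes in Myocd-LSD1 cells, 40 in Myocd-LSD1NF cells and 45 in control cells. Of all 21397 genes, 18205 had one in Myocd-LSD1 cells, 17796 in Myocd-LSD1NF cells and 18516 in control cells. Having a peak was thus common to most genes named in the lists. The median was 2 peaks per WNT gene in Myocd-LSD1 cells, 2 in Myocd-LSD1NF cells and 3 in control cells, against 1 per gene over the whole series in each list. Lrp6, a co-receptor gene, had the most, with 10 peaks in Myocd-LSD1 cells, 9 in Myocd-LSD1NF cells and 11 in control cells. Wnt5a, a ligand of the non-canonical branch, differed most between lists, with 6 peaks in Myocd-LSD1 cells, 1 in Myocd-LSD1NF cells and 2 in control cells.

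**Figure D1:**
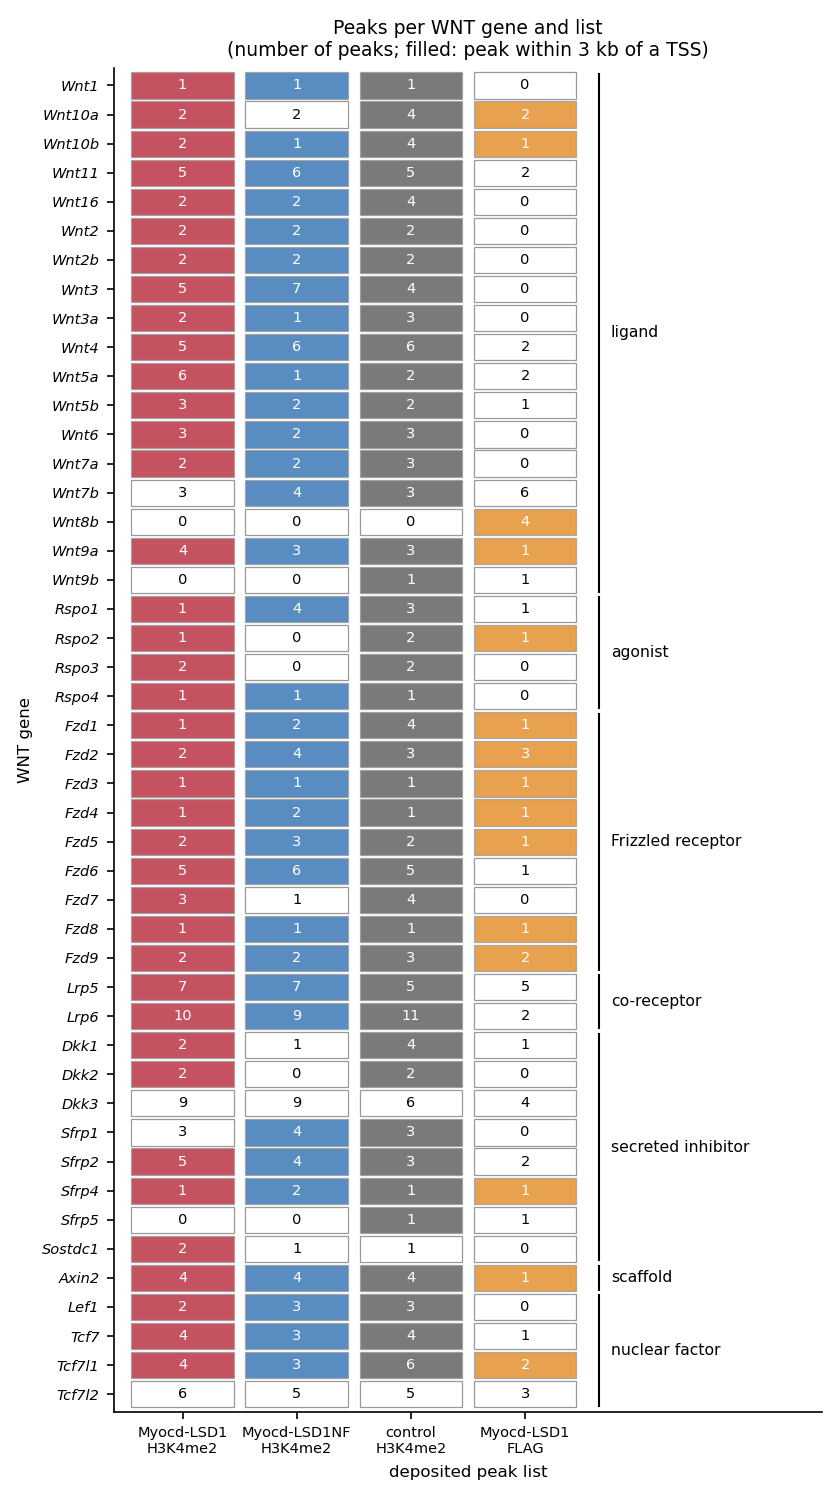
Number of deposited peaks assigned to each of the 46 WNT genes in the Myocd-LSD1, Myocd-LSD1NF and control H3K4me2 lists and the FLAG list, with genes ordered by role. Lrp6 has the most H3K4me2 peaks (10 in Myocd-LSD1, 9 in Myocd-LSD1NF and 11 in control cells), and Wnt8b has 4 FLAG peaks and none of H3K4me2.

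A promoter peak was present for 39 of 46 WNT genes in the Myocd-LSD1 list (84.8%, against 67.7% of all genes in the series), 34 in the Myocd-LSD1NF list (73.9%, against 65.4%) and 42 in the control list (91.3%, against 69.4%). In 32 of the 43 WNT genes with a promoter peak in any H3K4me2 list it was called in all 3 (74.4%, against 85.0% of all such genes). The other 11 genes (25.6%, against 15.0%) changed state between lists. The commonest change was a peak missing only in Myocd-LSD1NF cells, in 6 of 43 genes (14.0%, 95% Clopper-Pearson interval 5.3% to 27.9%), against 4.18% of all 15617 genes with a promoter peak in any H3K4me2 list. These were the R-spondin genes Rspo2 and Rspo3, the inhibitor genes Dkk1 and Dkk2, the receptor gene Fzd7 and the ligand gene Wnt10a.

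Missing peaks in Myocd-LSD1 cells were fewer. The peak was absent only there for 2 genes (4.65%, against 1.88% of the same 15617 genes), the inhibitor gene Sfrp1 and the ligand gene Wnt7b. It was present only in control cells for 2 genes (4.65%, against 3.99%), Sfrp5 and Wnt9b, and only in Myocd-LSD1 cells for 1 (2.33%, against 2.25%), Sostdc1. The Sostdc1 peak lay 2872 bp past the start, close to the 3 kb limit. No WNT gene lacked a promoter peak only in control cells (0 of 43, against 1.27% of the 15617) or had one only in Myocd-LSD1NF cells (0 of 43, against 1.42%). Dkk3, Tcf7l2 and Wnt8b had no promoter peak in any H3K4me2 list.

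By role, the promoter peak was present in all 3 lists for 14 of 18 ligand genes, 8 of 9 Frizzled genes, both co-receptor genes, 3 of 4 nuclear factor genes and Axin2. It was present in all 3 for 2 of 4 R-spondin genes and 2 of 8 secreted inhibitor genes. Among inhibitors the counts were 5 of 8 in Myocd-LSD1 cells, 3 in Myocd-LSD1NF cells and 6 in control cells, and among the 4 R-spondins they were 4 in Myocd-LSD1 cells, 2 in Myocd-LSD1NF cells and 4 in control cells. Dkk3, with no promoter peak in any H3K4me2 list, is among the 8 inhibitors but did not change state. The 2 groups of secreted modulators thus had the most changes of promoter state for their size. Over all genes with a promoter peak in any H3K4me2 list, 85.0% had it in all 3. With groups of 4 and 8 genes, this order of roles was not tested.

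The comparison with replicates behind it is the authors' own test of Myocd-LSD1 against Myocd-LSD1NF cells. The authors' deposited table lists 5183 sites, all with a false discovery rate (FDR) of at most 0.05, with a mean log2 concentration (DiffBind's measure of the reads at a site) for each line and their difference, Myocd-LSD1 minus Myocd-LSD1NF. It gives no standard error and no value per sample, and sites that did not pass are not listed in it. Of these sites in the authors' deposited table, 29 lay on WNT peaks, 22 higher in Myocd-LSD1 cells (75.9%, interval 56.5% to 89.7%) and 7 lower, while 58.1% of all listed sites were higher. By gene, 17 of 46 WNT genes had a higher site by the authors' deposited table (37.0%, interval 23.2% to 52.5%, against 11.7% of all genes). A lower site was on 7 genes in the authors' deposited table (15.2%, interval 6.34% to 28.9%, against 8.4%), and 21 genes had any site (45.7%, against 19.0%). Fzd7, Lrp5 and Wnt2 had both. WNT genes also had more peaks per gene on which a site can lie, a median of 4 over both lines against 3. The same 11.7% and 8.4% of all genes stand against the counts of genes by role below, and no role was tested.

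Counted by peak instead of by gene, 22 of the 133 WNT peaks of Myocd-LSD1 cells overlapped a higher site of the authors' deposited table (16.5%, interval 10.7% to 24.0%), against 7.1% of all peaks. A lower site was under 4 of the 133 (3.01%, interval 0.825% to 7.52%, against 2.66%) by the authors' deposited table. Of the 126 WNT peaks of Myocd-LSD1NF cells, 8 overlapped a lower site of the authors' deposited table (6.35%, interval 2.78% to 12.1%), against 5.07% of all. The share on higher sites was thus above that of all peaks, and the share on lower sites was close to it. The median log2 difference in the authors' deposited table was 2.47 over the 22 higher WNT sites (0.72 to 4.89) and 2.36 over all higher sites. Over the 7 lower WNT sites it was -2.24 in the authors' deposited table (-4.23 to -0.96), against -2.09 over all lower sites. The outer ends of both ranges, 4.89 at Sostdc1 and -4.23 at Wnt10a, come from sites where 1 line is at the lowest value of its column, and so depend on that floor. Values of the authors' deposited table were also low in 1 line at Rspo2 (1.05), Fzd7 (0.87), Axin2 (0.68), Wnt2 (0.58) and Wnt5a (0.58). Few reads lie behind such values, so the size of these differences is uncertain too.

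**Figure D2:**
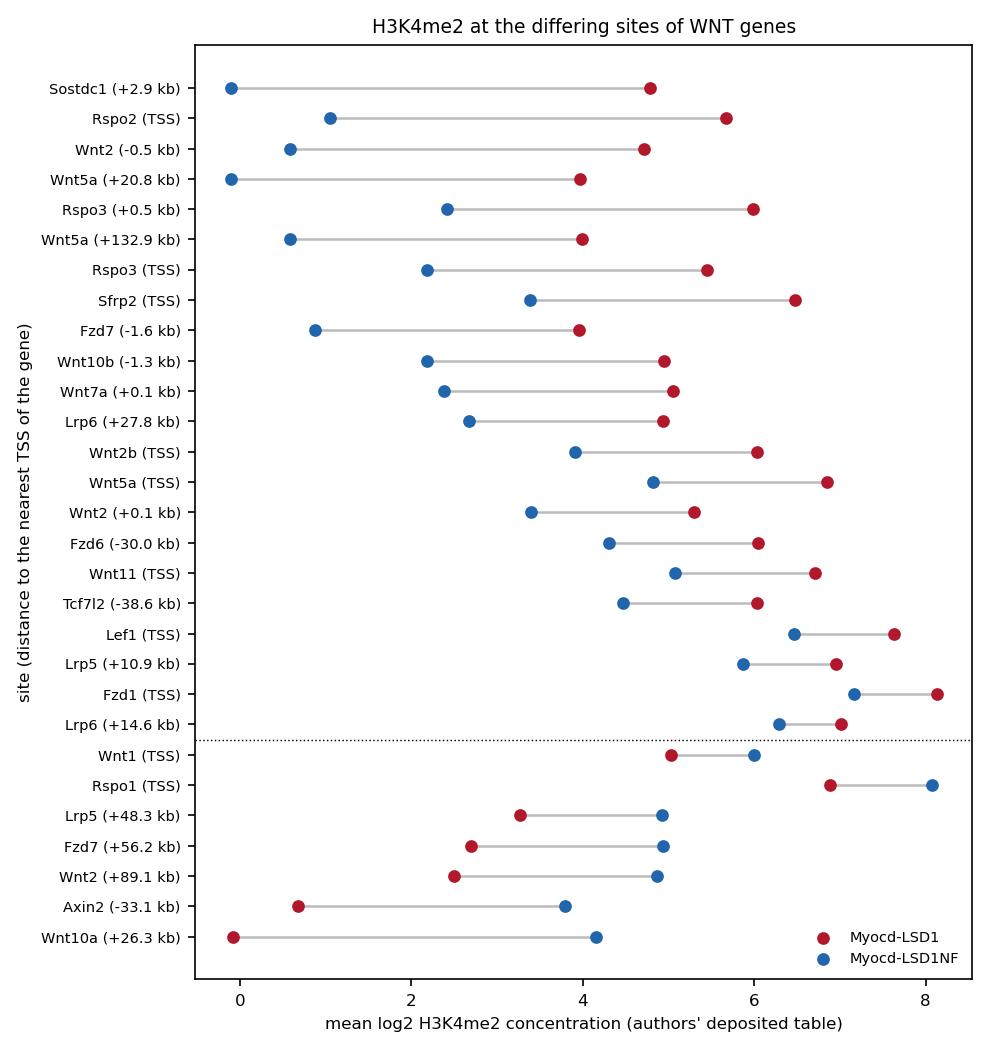
Mean log2 concentration of H3K4me2 at each of the 29 WNT sites in the authors' deposited table, in Myocd-LSD1 and Myocd-LSD1NF cells, by gene. Higher sites outnumber lower ones by 22 to 7, and 3 sites sit at the lowest value of a column, those of Wnt10a in Myocd-LSD1 cells and of Sostdc1 and Wnt5a in Myocd-LSD1NF cells.

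Of the 4 R-spondin genes, 2 had a higher promoter site and 1 a lower one by the authors' deposited table. Rspo2 encodes a secreted agonist that acts through LGR receptors. Its promoter site at chr7:82058740-82059706, on the start of a predicted transcript, had a log2 concentration of 5.67 in Myocd-LSD1 cells and 1.05 in Myocd-LSD1NF cells by the authors' deposited table. That is a log2 difference of 4.63 (24.8-fold, FDR 2.21e-09 in the authors' deposited table). The peak was also called in control cells and lay under a FLAG peak, and no Rspo2 peak at all was called in Myocd-LSD1NF cells.

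Rspo3 encodes a second agonist of this family, and 2 sites lay at its start. The site at chr1:30681633-30682060 had 5.45 in Myocd-LSD1 cells and 2.18 in Myocd-LSD1NF cells, as the authors' deposited table gives it, a difference of 3.27 (FDR 4.28e-07). The neighbouring site at chr1:30682511-30683184 had 5.99 in Myocd-LSD1 cells and 2.42 in Myocd-LSD1NF cells according to the authors' deposited table, a difference of 3.57 (FDR 3.39e-08). Both had peaks in Myocd-LSD1 and control cells, none in Myocd-LSD1NF cells and none of FLAG.

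Rspo1 went the other way. Its promoter site at chr5:142985396-142987676 had 6.88 in Myocd-LSD1 cells and 8.08 in Myocd-LSD1NF cells by the authors' deposited table, a difference of -1.19 (FDR 3e-07), with peaks in all 3 H3K4me2 lists. Rspo4 had 1 promoter peak in each H3K4me2 list and no listed site. Of the receptors for R-spondins, Lgr4 had higher sites of 1.83 (FDR 1.47e-06) and 0.60 (FDR 0.0388) and Lgr5 of 0.69 (FDR 0.00694) as log2 differences in the authors' deposited table.

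**Figure D3:**
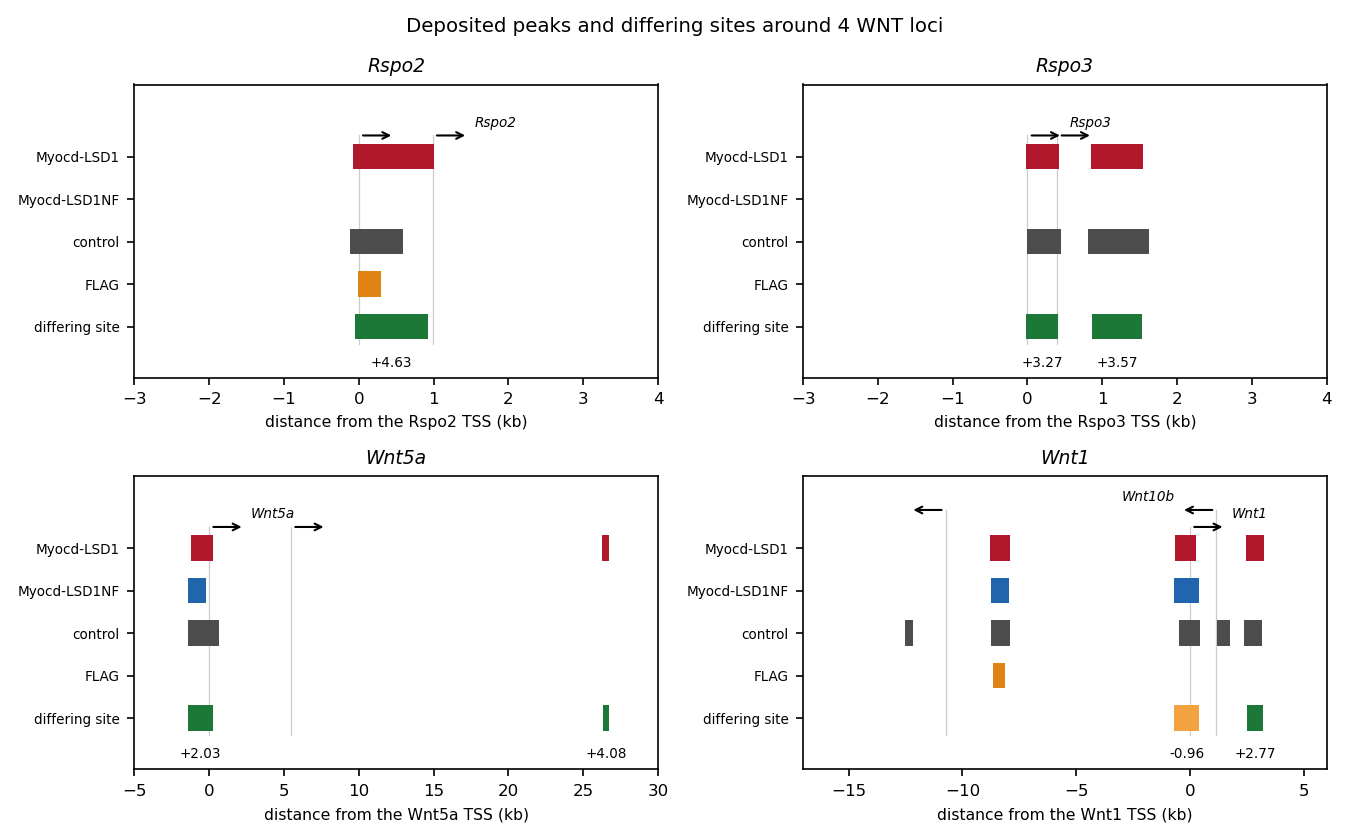
Deposited peaks in the 4 lists and the listed differing sites around the TSS of Rspo2, Rspo3, Wnt5a and Wnt1, by distance in kb, with arrows for transcript starts and the log2 difference (Myocd-LSD1 minus Myocd-LSD1NF) under each site, green for higher and light orange for lower. Rspo2 and Rspo3 have no peak in the Myocd-LSD1NF row, and the Wnt1 start has a lower site (-0.96) with a higher one (2.77) inside the gene.

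Among ligands, 6 of 18 genes had a higher site (against 11.7% of all genes) and 3 a lower one (against 8.4%) by the authors' deposited table. Wnt5a encodes a ligand that signals mainly without beta-catenin. Its promoter site at chr16:4468050-4469697 had 6.85 in Myocd-LSD1 cells and 4.82 in Myocd-LSD1NF cells, as the authors' deposited table gives it, a difference of 2.03 (FDR 2.91e-08). Peaks were called there in all 3 lines. A site 132944 bp downstream, at chr16:4607870-4608474, had 3.99 in Myocd-LSD1 cells and 0.58 in Myocd-LSD1NF cells according to the authors' deposited table (difference 3.41, FDR 0.00334), and it overlapped a FLAG peak. At another intergenic site, chr16:4495743-4496195, the authors' deposited table gave 3.97 in Myocd-LSD1 cells and its lowest value, -0.11, in Myocd-LSD1NF cells (FDR 0.00181), so no fold is given. Both distal sites had a peak in Myocd-LSD1 cells and in neither other H3K4me2 list.

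Wnt2 and Wnt2b encode closely related ligands. The Wnt2 site at its start, chr4:45332052-45332823, had 5.30 in Myocd-LSD1 cells and 3.39 in Myocd-LSD1NF cells by the authors' deposited table (difference 1.91, FDR 0.00254). Just upstream, chr4:45333432-45333995 had 4.71 in Myocd-LSD1 cells and 0.58 in Myocd-LSD1NF cells, as the authors' deposited table gives it (difference 4.13, FDR 3.19e-05), with a peak in the Myocd-LSD1 list only. Another Wnt2 site, chr4:45243209-45243777 in intron 15 of the neighbouring gene ST7, was lower, with 2.50 in Myocd-LSD1 cells and 4.86 in Myocd-LSD1NF cells according to the authors' deposited table (difference -2.36, FDR 8.26e-04). The promoter and the distal site of Wnt2 thus moved in opposite directions. The Wnt2b promoter site, chr2:207455019-207455779, had 6.03 in Myocd-LSD1 cells and 3.91 in Myocd-LSD1NF cells by the authors' deposited table (difference 2.11, FDR 9.69e-06).

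Wnt7a and Wnt11 also had a higher site at the promoter, with a peak in all 3 lines. Wnt7a, a ligand known from limb and neural patterning, had 5.05 in Myocd-LSD1 cells and 2.38 in Myocd-LSD1NF cells at chr4:123040123-123040537 in the authors' deposited table (difference 2.67, FDR 2.36e-04). Wnt11, a non-canonical ligand, had 6.71 in Myocd-LSD1 cells and 5.08 in Myocd-LSD1NF cells at chr1:163797524-163798286 in the authors' deposited table (difference 1.62, FDR 2.33e-04).

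Wnt1 and Wnt10b are neighbours on opposite strands. Their curated transcripts point away from each other and start 10731 bp apart, and a predicted Wnt10b transcript starts inside Wnt1, 1160 bp past the Wnt1 start. The Wnt1 promoter site, chr7:140464311-140465412, was lower, with 5.03 in Myocd-LSD1 cells and 6.0 in Myocd-LSD1NF cells, as the authors' deposited table gives it (difference -0.96, FDR 0.025). The site assigned to Wnt10b, chr7:140467489-140468212, had 4.95 in Myocd-LSD1 cells and 2.18 in Myocd-LSD1NF cells according to the authors' deposited table (difference 2.77, FDR 1.81e-04). It lies inside the Wnt1 gene, 2490 bp past the Wnt1 start, and is a promoter of Wnt10b only by that predicted transcript.

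Wnt10a had a lower distal site at chr9:82079916-82080348. The authors' deposited table gave its lowest value, -0.08, in Myocd-LSD1 cells and 4.15 in Myocd-LSD1NF cells (FDR 9.05e-04), so no fold is given. Its promoter peak, which had no listed site, was called in Myocd-LSD1 and control cells with a fold enrichment over background, as the authors give it for each peak, of 4.24 in the Myocd-LSD1 list and 8.25 in the control list. Folds of different lists are not compared. Of the other ligand promoters that changed state, that of Wnt7b had a fold of 3.58 in the Myocd-LSD1NF list, above only 7.5% of its peaks. In the control list the Wnt7b promoter had a fold of 5.54, above 39.5% of its peaks, and that of Wnt9b had 6.13.

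The Frizzled genes had 3 higher sites and 1 lower one by the authors' deposited table. Fzd1 had the highest Myocd-LSD1 level of all 29 WNT sites, 8.13 in Myocd-LSD1 cells and 7.16 in Myocd-LSD1NF cells at its promoter, chr4:26470366-26472443, in the authors' deposited table (difference 0.97, FDR 2.35e-04). Fzd6 had a site upstream, at chr7:77866893-77868289, with 6.04 in Myocd-LSD1 cells and 4.30 in Myocd-LSD1NF cells by the authors' deposited table (difference 1.74, FDR 1.1e-04). Both sites carried peaks in all 4 lists, FLAG included.

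Fzd7, a receptor gene expressed in many stem and progenitor cells, had sites in both directions. Its promoter site, chr9:66057668-66058161, had 3.95 in Myocd-LSD1 cells and 0.87 in Myocd-LSD1NF cells, as the authors' deposited table gives it (difference 3.08, FDR 0.00469). The second, chr9:66115973-66116662 in intron 10 of 13 of a predicted Fzd7 transcript, had 2.70 in Myocd-LSD1 cells and 4.93 in Myocd-LSD1NF cells according to the authors' deposited table (difference -2.24, FDR 0.0027). The promoter peak was called in Myocd-LSD1 and control cells, and the intronic peak in all 3 lines.

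The co-receptor genes Lrp5 and Lrp6 had sites only in introns. At Lrp5, the site in intron 1, chr1:218908430-218909184, had 6.96 in Myocd-LSD1 cells and 5.87 in Myocd-LSD1NF cells by the authors' deposited table (difference 1.09, FDR 5.2e-04). The Lrp5 site in intron 5 of 22, chr1:218871225-218871746, had 3.27 in Myocd-LSD1 cells and 4.92 in Myocd-LSD1NF cells, as the authors' deposited table gives it (difference -1.65, FDR 0.023). Both overlapped a FLAG peak, so FLAG lay under sites of either direction within 1 gene. At Lrp6, intron 3 held chr4:168269199-168269580 with 4.93 in Myocd-LSD1 cells and 2.67 in Myocd-LSD1NF cells according to the authors' deposited table (difference 2.27, FDR 0.00119). Intron 2 of Lrp6 held chr4:168281867-168282787 with 7.01 in Myocd-LSD1 cells and 6.29 in Myocd-LSD1NF cells by the authors' deposited table, the smallest WNT difference (0.72, FDR 0.0264).

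Secreted inhibitor genes had 2 higher sites and no lower one in the authors' deposited table. Sfrp2, which encodes a WNT-binding protein, had the lowest FDR of the WNT sites at its promoter, chr2:182723221-182724511. The authors' deposited table gave 6.48 in Myocd-LSD1 cells and 3.38 in Myocd-LSD1NF cells there (difference 3.10, 8.57-fold, FDR 1.14e-11), and peaks were called in all 3 lines. Sostdc1, which encodes an antagonist of LRP6 and of BMP ligands, had 4.78 in Myocd-LSD1 cells and the lowest value, -0.11, in Myocd-LSD1NF cells at chr6:55815736-55816251 in the authors' deposited table (FDR 1.71e-05). The peak at this site, 2872 bp past the Sostdc1 start, was called in Myocd-LSD1 cells alone. It had a fold of 14.2, higher than 96.2% of the peaks of that list.

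Dkk1 and Dkk2, which encode LRP-binding inhibitors, had promoter peaks in Myocd-LSD1 and control cells and none in Myocd-LSD1NF cells, with no listed site. Dkk1 had a peak at each of its 2 annotated starts, with folds of 12.1 and 13.0 in the Myocd-LSD1 list and 8.97 and 9.29 in the control list. In the Myocd-LSD1NF list its only peak lay in an intron of Prkg1. The Dkk2 promoter peaks had folds of 4.54 and 6.81 in the Myocd-LSD1 list and 5.32 and 7.26 in the control list. Sfrp1, a WNT-binding inhibitor gene, had its promoter peak in the Myocd-LSD1NF list (fold 8.27) and the control list (fold 6.24), and Sfrp5 in the control list alone (fold 4.77). Of the 6 promoters lacking a peak only in Myocd-LSD1NF cells, 3 had a listed site (Fzd7, Rspo2 and Rspo3). For the others the difference between lists was not matched by a site that passed the authors' test. Neither Sfrp1 nor Wnt7b, whose promoter peak was missing only in Myocd-LSD1 cells, had a listed site.

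The nuclear factor and scaffold genes had 3 sites. Lef1, a TCF/LEF factor that is itself a WNT target, had 7.63 in Myocd-LSD1 cells and 6.47 in Myocd-LSD1NF cells at its promoter, chr2:236232250-236234432, in the authors' deposited table (difference 1.16, FDR 6.57e-06). Tcf7l2 had 6.03 in Myocd-LSD1 cells and 4.47 in Myocd-LSD1NF cells upstream of the gene, at chr1:276647057-276648356, in the authors' deposited table (difference 1.56, FDR 3.84e-04), under a FLAG peak. Axin2, a feedback target of beta-catenin signalling, was lower at an upstream site, chr10:97178905-97179360, with 0.68 in Myocd-LSD1 cells and 3.79 in Myocd-LSD1NF cells, as the authors' deposited table gives it (difference -3.11, FDR 0.0145). The Axin2 promoter peak was present in all 3 lines and had no listed site.

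Most higher WNT sites lay at promoters, with 15 of 22 within 3 kb of a TSS (68.2%, interval 45.1% to 86.1%) against 43.7%, by position in the authors' deposited table. These 15 sites were on 13 genes. The lower sites of the authors' deposited table were mostly distal, with 2 of 7 (28.6%) within 3 kb against 23.0%. The median difference was 2.77 over the 15 higher WNT promoter sites and 1.74 over the 7 distal ones in the authors' deposited table, against 2.0 and 2.62 over all higher sites of those kinds. Promoter sites were thus the larger ones among WNT genes and the smaller ones in the series, though 22 sites of 17 genes share loci and this order was not tested.

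The control list shows where the control cells had a peak at these sites. A control peak lay on 17 of 22 higher WNT sites (77.3%, against 69.2% of all) and on 7 of 7 lower ones (against 83.8%) of the authors' deposited table. For 5 of the 22 higher sites (22.7%, against 25.5%) there was a control peak and no Myocd-LSD1NF peak, at Fzd7, Rspo2, Rspo3 and the Wnt10b site. For another 5 (22.7%, against 27.8%) the peak was in the Myocd-LSD1 list alone, at Lrp6, Sostdc1, Wnt2 and the 2 distal Wnt5a sites. Of the 7 lower sites, 3 (42.9%, against 34.5%) had a control peak and none in Myocd-LSD1 cells, at Axin2, Wnt2 and Wnt10a. Shares of these classes were near those of all sites. No replicated comparison with control cells is among the files used here.

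**Figure D4:**
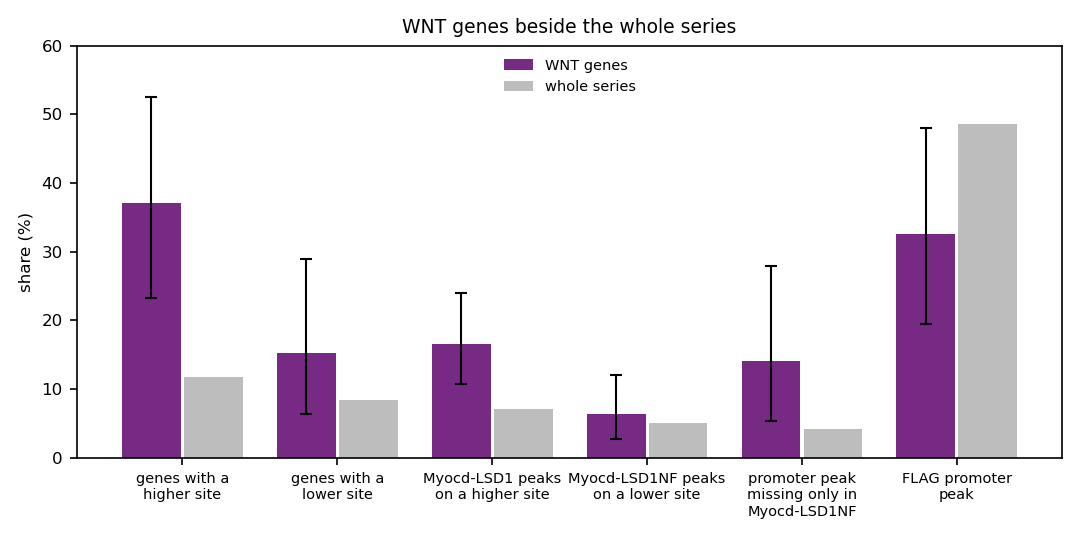
Percent of WNT genes, peaks or sites in each class and percent of the whole series in the same class, with 95% Clopper-Pearson intervals for the WNT values. The WNT share is higher for genes with a higher site (37.0% against 11.7%) and lower for genes with a FLAG promoter peak (32.6% against 48.5%).

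FLAG, the tag on the fusion, had most of its WNT peaks away from promoters, with 15 of 58 (25.9%) within 3 kb of the TSS, against 40.1% of all FLAG peaks. A FLAG peak was assigned to 31 of 46 WNT genes (67.4%, against 70.7% of all genes). A FLAG peak lay within 3 kb of a TSS of 15 (32.6%, interval 19.5% to 48.0%, against 48.5%). Of the 133 WNT peaks of H3K4me2 in Myocd-LSD1 cells, 38 overlapped a FLAG peak (28.6%, interval 21.1% to 37.0%, against 42.0% of all). FLAG promoter peaks were present at 7 of 9 Frizzled genes (Fzd1, Fzd2, Fzd3, Fzd4, Fzd5, Fzd8 and Fzd9), 4 of 18 ligand genes, 1 of 4 R-spondin genes, 1 of 8 inhibitor genes and neither co-receptor gene.

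The WNT gene with the highest FLAG score was Wnt11, whose peak lay 18859 bp upstream at chr1:163774129-163775277 with a fold of 8.71 and a score of 360, above 98.3% of FLAG peaks. Tcf7l1, a TCF/LEF factor gene, had a score of 218 and a fold of 10.9 at its start, chr4:100659944-100660818. Next by score came the Fzd1 start (172), a peak upstream of Tcf7l2 (169) and the Fzd4 start (132). The strongest FLAG peaks at WNT genes thus included both promoters of receptors and nuclear factors and regions upstream of genes. The other genes among the 10 with the highest score were Wnt7b (121), Dkk3 (95), Lrp5 (92), Fzd3 (89) and Wnt4 (76). All 10 of these peaks overlapped an H3K4me2 peak of each line.

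A FLAG peak lay on 6 of the 22 higher WNT sites of the authors' deposited table (27.3%, interval 10.7% to 50.2%, against 32.5% of all higher sites). These were at Fzd1, Fzd6, Lrp5, Rspo2, Tcf7l2 and the far Wnt5a site. It lay on 1 of the 7 lower sites of the authors' deposited table (14.3%, against 22.7%), at Lrp5. Most WNT sites that differed between the fusion lines, in either direction, thus had no FLAG peak, as in the series. Wnt8b, a ligand gene known from brain development, had 4 FLAG peaks with folds of 3.49 to 6.24 and no H3K4me2 peak in any line.

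Genes that act with these ones in the pathway but are not among the 46 were counted from 6 lists, of which 79 of 85 genes were named in the peak lists. Of the 79, 15 had a higher site and 14 a lower one by the authors' deposited table. Of all 21397 genes, 2494 had a higher site (11.7%) and 1798 a lower one (8.4%). Both shares were thus above those of all genes, and lower sites were nearly as frequent as higher ones. The same 11.7% and 8.4% stand against the counts of each single list below, and no list was tested. None of the 14 genes of the destruction complex and Dishevelled had a listed site in the authors' deposited table, against 19.0% of all genes. All 14 had a promoter peak in all 3 H3K4me2 lists, against 85.0% of genes with one in any of these lists. With 14 genes, neither count was tested against these shares. These 14 genes do not include Axin2, and sites that did not pass are not listed.

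Of 10 receptor partner and secretion genes, 5 had a higher site and 3 a lower one by the authors' deposited table. Ror2, a receptor for WNT5A, had 4 lower sites with log2 differences of -1.84, -2.03, -1.19 and -2.62 in the authors' deposited table, and its relative Ror1 had one of -2.46 (FDR 1.63e-04). Ryk, another WNT receptor, had a higher site of 1.77 (FDR 5.77e-09) in the authors' deposited table. Ptk7, a co-receptor of planar polarity, had a higher site of 3.45 (FDR 1.13e-14) and a lower one of -0.81 (FDR 0.0271) in the authors' deposited table, and the glypican gene Gpc4 a higher one of 1.13 (FDR 0.00813). Receptors for WNT5A thus differed in direction among themselves, with lower sites at Ror1 and Ror2 and a higher one at Ryk.

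Of 15 feedback and secreted inhibitor genes, 3 had a lower site and 2 a higher one in the authors' deposited table. Frzb, an SFRP-family inhibitor, was lower, with differences of -2.63 (FDR 6.36e-08) and -1.13 (FDR 3.67e-07) at 2 sites near its start in the authors' deposited table, and Kremen1, a DKK receptor, had one of -1.60 (FDR 0.00268). Wif1, a WNT-binding inhibitor gene, had the lowest value, -0.08, in Myocd-LSD1 cells and 4.35 in Myocd-LSD1NF cells at a distal site in the authors' deposited table. Apcdd1 had higher sites of 2.48 and 1.82 and Shisa2 of 2.24 (FDR 2.48e-07) in the authors' deposited table. Both encode inhibitors that act in the receiving cell.

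Of 12 nuclear partner genes, Bcl9, a beta-catenin cofactor, had a higher site of 3.05, and the corepressor genes Ctbp2 and Tle4 lower ones of -2.84 and -2.13 in the authors' deposited table. Of 10 planar polarity genes, Celsr3 had a higher site of 1.0, Daam2 and Prickle1 lower ones of -1.80 and -1.0, and Prickle2 sites of both directions in the authors' deposited table. Of 18 WNT target genes, 5 had a higher site and 3 a lower one by the authors' deposited table. The higher ones were Sp5, Tnfrsf19, Twist1, Cdx1 and Fosl1, with 3.54 at the Sp5 promoter, and the lower ones Ccnd1 (-1.97), Wisp1 and Wisp2 (-1.31), in the authors' deposited table. Known targets of the pathway thus had sites in both directions.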

How the data were processed

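CUT&Tag for H3K4me2 was done on 3 samples each of Myocd-LSD1, Myocd-LSD1NF and control rat aortic SMC, and CUT&Tag for FLAG on 4 samples of tagged Myocd-LSD1 cells, per the labels. The build rn6 and the tools MACS2, DiffBind, Bowtie2, ChIPseeker and deepTools are named without versions or settings, per the submitters' processing notes. Whether replicates were pooled, how duplicates were handled and how libraries were scaled is not stated. The authors deposited 1 peak list per group, with a score, a fold enrichment ratio and a -log10 q-value column per the file headers. The authors' deposited table of DiffBind sites holds the log2 concentration in either line, the log2 difference of the 2, the p-value and its FDR, per the file headers. The lowest values in its 2 concentration columns are -0.08 and -0.11 and were treated as floors. The deposited peak values rank peaks within a list only.

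Members were matched by symbol. A promoter peak lay within 3 kb of any TSS of a gene named in the lists, overlap meant at least 1 bp, and a site belonged to a gene whose peak it overlapped. Starts are 1-based, and site starts are exact within 1 bp. No test of sites was added to the authors' own: counts stand beside the same counts over all genes, peaks or sites, and Clopper-Pearson 95% intervals cover counting error only, with peaks of a gene sharing a locus. The members and the lists of pathway and marker genes were chosen with earlier results of these data known. All members with a site, with a promoter peak that differed between lists or among the 10 highest FLAG scores were named, and other pathway genes only where they had a site. Promoter sequences came from the RefSeq table of GRCr8, which held 31 of the 46 genes. Code for overlaps was tested on simulated intervals, and code for promoter peaks and nearest starts on a small made-up example. Alternatives were another promoter distance, overlap or FDR, a minimum size of the difference and the upper part of each list. Scripts ran in Python 3.11.15 with scipy 1.17.1, numpy 2.4.6, matplotlib 3.10.9 and pandas 2.3.3.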

Additional observations from a re-analysis of the deposited data

How the results depend on the processing

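Of the alternative values, 56 stayed within 1.5 times of those reported and 13 did not. When only the 50% of peaks with the best q-values were kept, WNT promoters with a peak in all 3 lists numbered 19, those missing only in control 1, only in Myocd-LSD1 4 and only in Myocd-LSD1NF 1. Genes with a FLAG peak were then 19, genes with a FLAG promoter peak 9, WNT peaks of Myocd-LSD1 on a FLAG peak 24, and sites of the authors' deposited table on a FLAG peak 4. At an FDR of at most 0.01 in the authors' deposited table, 4 lower sites on 4 genes were left, since fewer sites were listed. Of the authors' deposited table, 2 lower sites on 2 genes lay within 3 kb of a TSS. With promoters taken within 1 kb, 0 genes had a promoter peak only in Myocd-LSD1, since the Sostdc1 peak lies farther from its start. The 6 promoters missing only in Myocd-LSD1NF rested on the full lists: with the top 50% they were those of Dkk1, Rspo3, Sfrp2, Wnt2, Wnt2b and Wnt5a. No paired analysis was possible because each group has 1 peak list and no values per sample, and for the same reason no sample could be left out. Read depth is unknown, so a missing peak is one not called, not an absent mark.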

Other observations

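The highest WNT peak by fold was not at a promoter. A peak annotated to the 3′ UTR of Wnt10a, 11175 bp past its start in Myocd-LSD1 cells, had a fold of 18.3 in the Myocd-LSD1 list, 17.7 in the Myocd-LSD1NF list and 16.4 in the control list. These stood above 99.7%, 99.5% and 99.5% of the peaks of those lists, and a FLAG peak overlapped them. The Wnt10a promoter peak had a fold of 4.24 in the Myocd-LSD1 list, above 16.2% of its peaks, and 8.25 in the control list, above 71.7% of its peaks, and none was called in the Myocd-LSD1NF list.

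Wnt7b had 6 FLAG peaks, the most of any WNT gene, and none at its promoter. They lay 28293 to 98131 bp past its start, and the 2 with the highest score overlapped H3K4me2 peaks of all 3 lines. Dkk3 had 9 H3K4me2 peaks in Myocd-LSD1 cells, 9 in Myocd-LSD1NF cells and 6 in control cells, and 4 FLAG peaks, with none within 3 kb of an annotated start.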
